A study of Mus musculus with 18 samples.

Results

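The enzymes that attach a glucuronic acid, glutathione or sulfate group to drugs, bile pigments, steroids and toxins were followed in ileum RNA-seq of mice that overexpress *Ppara* in the intestinal epithelium. All protein-coding genes whose symbol starts with Ugt1, Ugt2, Gst or Sult were taken, which gave 63 of the 55487 genes in the count files: 19 *Ugt*, 23 *Gst* and 21 *Sult* genes. Whole-thickness ileum was sequenced from 18 mice on a C57BL6/J background and a chow diet, with 1 library per mouse and 6 mice in each of 3 groups. By the authors' account every mouse carried the CAG-*Ppara*,-*EGFP* transgene at the *Col1a1* locus, and the controls had no Cre. The transgene copy number of the controls is not given, and their column names carry the letters wt. The other groups, IEC-*Ppara* heterozygous with 1 copy of the transgene and IEC-*Ppara* homozygous with both, also carried *Villin-CreERT2*, a recombinase that the villin promoter places in intestinal epithelial cells and that tamoxifen activates. The mice of all groups, controls included, were 8 to 13 weeks old. They received tamoxifen (100 mg/kg) on 3 days and were collected 2 weeks later. Controls were 3 females and 3 males, and each IEC-*Ppara* group was 2 females and 4 males.

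UDP-glucuronosyltransferases (UGTs) sit in the endoplasmic reticulum and transfer glucuronic acid from UDP-glucuronic acid. Glutathione S-transferases (GSTs) join glutathione to electrophiles, and sulfotransferases (SULTs) use the sulfate donor PAPS. The gut epithelium uses all of them as a first barrier to food-borne compounds, and PPARα, the nuclear receptor encoded by *Ppara*, is a regulator of lipid metabolism in the same cells. The question put to the data was whether the transcripts of these families differ between the genotypes.

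The libraries held 38528522 to 50376371 counts each. Levels are given as CPM, the counts scaled to the total of the library, and 3 CPM stood for at least 115.6 counts. The 63 genes together took 0.131 to 0.175% of the counts of a library. *Ppara* itself ran from 25.8 to 47.4 CPM in controls, from 107 to 196 CPM in heterozygous and from 184 to 279 CPM in homozygous libraries, so that every IEC-*Ppara* library stood above every control. *Fabp1*, a fatty acid binding protein and PPARα target, averaged 10.8 ± 3.30, 111 ± 33.7 and 158 ± 13.5 CPM (SD, n = 6 each). *Pdk4*, a kinase that restrains pyruvate oxidation and another such target, averaged 8.00 ± 5.42, 72.2 ± 26.4 and 100.7 ± 41.6 CPM. The libraries differed in tissue content: 8 smooth muscle markers, all detected, summed to 473 to 5407 CPM in controls, 604 to 3955 in heterozygous and 3698 to 8556 in homozygous libraries. Summed over 7 distal intestine markers, all detected, the ranges were 4980 to 7611, 5208 to 6629 and 3832 to 6442 CPM, with medians of 6289, 6258 and 4220, and 4 of the 6 homozygous libraries lay below every other library. Over 8 enterocyte markers the ranges were 17565 to 25595, 18463 to 24362 and 17832 to 24503 CPM. In whole tissue, fewer cells of a type and less RNA per cell cannot be told apart.

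The 9 *Ugt1a* genes lie in 1 locus on chromosome 1, and their structure decides how much of each can be counted, so their sequences are shown first. Each gene has a first exon of its own that is spliced to the same downstream exons. The last 60 bases of the first exon (lower case) and the first 60 of the second exon (capitals) are printed for the 3 genes with most counts, 5′ to 3′ on the plus strand. They were read from GENCODE transcripts on GRCm38, at chr1:88095919-88095978, chr1:88139272-88139331 and chr1:88212812-88212871 for the first exons and chr1:88215044-88215103 for the second.
Ugt1a7c: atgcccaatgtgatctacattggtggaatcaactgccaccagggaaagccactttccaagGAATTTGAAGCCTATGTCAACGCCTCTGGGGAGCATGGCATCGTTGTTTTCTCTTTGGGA
Ugt1a6a: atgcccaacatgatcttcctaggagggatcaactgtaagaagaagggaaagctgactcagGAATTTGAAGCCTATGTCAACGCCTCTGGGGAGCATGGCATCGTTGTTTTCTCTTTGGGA
Ugt1a1: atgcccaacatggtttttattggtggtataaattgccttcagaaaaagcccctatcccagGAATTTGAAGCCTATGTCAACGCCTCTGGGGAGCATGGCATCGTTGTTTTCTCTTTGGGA

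The capitals are the same in all 3 genes, and a read that lies within them fits every gene of the locus. The authors counted only reads that fall on 1 gene without ambiguity, so read pairs wholly within the shared exons add nothing to any *Ugt1a* count. The assignment of pairs that also reach a gene's own exon was not tested, and the levels per own base below depend on it. For *Ugt1a1*, the enzyme that conjugates bilirubin, 1839 of 2224 exonic bases (82.7%) are also exonic in another annotated gene, which leaves 385 bases of its own if the overlap is taken on either strand. Of the shared bases, 1311 are the common exons, and the rest of them overlap *Gm20528*, a transcript annotated on the other strand that had a count of 0 in all 18 libraries. *Ugt1a7c* keeps 1915 of 4219 bases and *Ugt1a6a* keeps 2142 of 4312. Per kilobase of all exonic bases, *Ugt1a1* stood at 4.26 CPM in controls and ranked 24 of the 63 genes. Whether reads were counted by strand is not given in the sources used here, and the own length of *Ugt1a1* depends on it. With overlaps on either strand left out it stood at 24.6 CPM per kilobase of its own bases, and with only those on its own strand left out, which leaves 913 bases, at 10.4 CPM. *Ugt1a7c* stood at 19.5 CPM either way, so the order of the 2 genes on own bases cannot be told without the strand setting, while the deposited FPKM, which divide by all exonic bases, place *Ugt1a7c* higher. A comparison of 1 gene between libraries is not touched by this length.

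**Figure D1:**
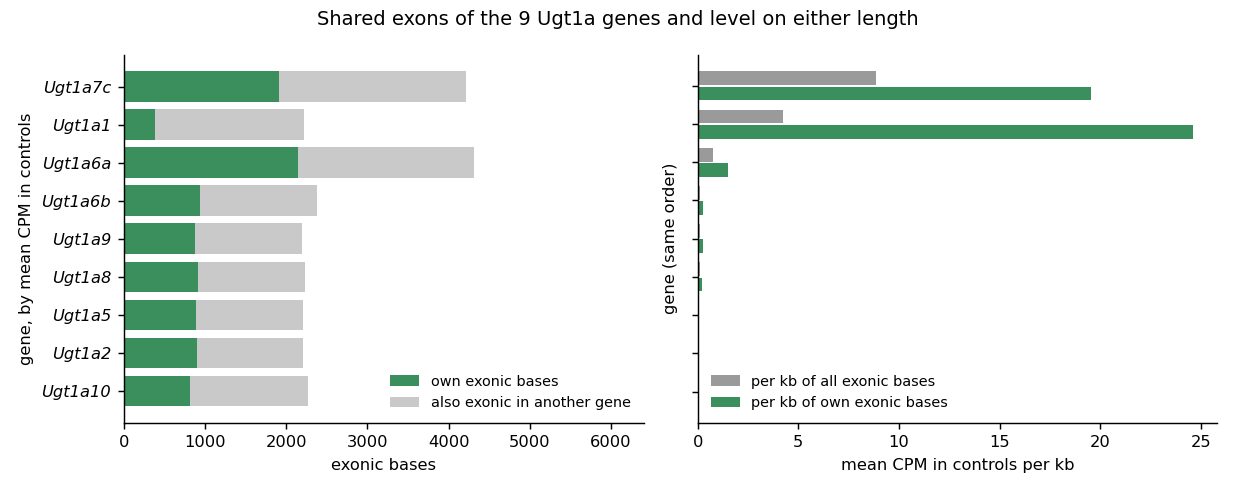
Left, exonic bases of the 9 *Ugt1a* genes, split into bases of the gene's own (green) and bases that are also exonic in another gene on either strand (grey). Right, mean CPM in 6 controls per kilobase of all exonic bases (grey) or of own exonic bases (green). *Ugt1a1* has 385 bases of its own, the fewest of the 9, and moves from 4.26 to 24.6 CPM per kilobase, or to 10.4 if the antisense overlap is kept.

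A second kind of ambiguity lies in near-identical copies. *Gstp1* (chr19:4035407-4037985, minus strand) and *Gstp2* (chr19:4040285-4046023, minus strand), GSTs of the pi class, have coding sequences of 633 bases that differ at 12 positions, an identity of 98.1%. The first 120 coding bases hold 6 of them, in capitals, read from the same GENCODE transcripts.
Gstp1: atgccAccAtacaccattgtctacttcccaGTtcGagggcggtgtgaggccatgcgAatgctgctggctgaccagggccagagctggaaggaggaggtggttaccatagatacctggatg
Gstp2: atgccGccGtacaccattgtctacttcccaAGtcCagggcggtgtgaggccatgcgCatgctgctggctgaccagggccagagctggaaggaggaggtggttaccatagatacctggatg

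Of the 100-base stretches of *Gstp2* transcripts, 46.9% also occur in another gene, and of those of *Gstp1* 25.1%, so the split of reads between the pair is uncertain. *Gsta1*, a GST of the alpha class, shares 80.6% of its stretches, above all with *Gm3776*, whose coding sequence differs from it at 2 of 672 bases. In controls *Gm3776* averaged 2.37 ± 0.407 CPM, and in the homozygous group 2.92 ± 0.557 CPM (SD, n = 6 each). For *Ugt2b5* the shared part was 24.7%, and for *Gsto1*, *Sult1b1*, *Sult1d1*, *Gsta4*, *Gstk1*, *Sult4a1* and *Ugt2b36* none was found.

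Expression was concentrated in a few genes. Of the 63, 32 passed the filter of more than 3 CPM in at least 4 libraries: 7 *Ugt*, 19 *Gst* and 6 *Sult* genes. Of the 31 others, 11 had no count in any library, among them *Sult2a1* to *Sult2a7*, which sulfonate steroids and bile acids. The other 20 reached at most 3.75 CPM in a library. Per length, *Gst* genes held 60% of the summed FPKM of controls, *Sult* genes 21.4% and *Ugt* genes 18.5%. Per base that no other gene overlaps, the *Sult* and *Ugt* shares changed places in order, at 20.6% and 22.6% with overlaps on either strand left out and 20.7% and 21% with those on the same strand. By deposited FPKM, 5 genes held 60%. These were *Gsto1* at 118 ± 7.33 FPKM, *Ugt2b34* at 79.8 ± 7.63, *Gstp1* at 78.8 ± 7.38, *Sult1b1* at 45.2 ± 3.44 and *Sult1d1* at 41.4 ± 4.99 (SD, n = 6). *Gsto1* reduces dehydroascorbate, and its lowest control at 111 FPKM lay above the highest control of the next gene at 89.6. *Ugt2b34* and *Gstp1* did not differ beyond their spread, nor did *Sult1b1*, which sulfonates thyroid hormones and phenols, and *Sult1d1*, which sulfonates catecholamines. *Sult2b1*, a cholesterol sulfotransferase, followed with 32.5 ± 4.37 FPKM, *Gstm1*, of the mu class, with 32.3 ± 7.88 and *Gstp2* with 30.3 ± 3.89. *Gsta4*, a GST that handles lipid peroxidation products such as 4-hydroxynonenal, stood at 18.1 ± 5.87, *Gstt1*, of the theta class, at 12.1 ± 2.82 and *Gstk1*, the kappa class GST of mitochondria and peroxisomes, at 8.94 ± 1.95 FPKM. By deposited FPKM the lowest of the tested genes were *Gsta3* at 1.02 and *Ugt1a6a* at 0.740. For *Ugt1a6a* this divides by a length that includes the shared exons.

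**Figure D2:**
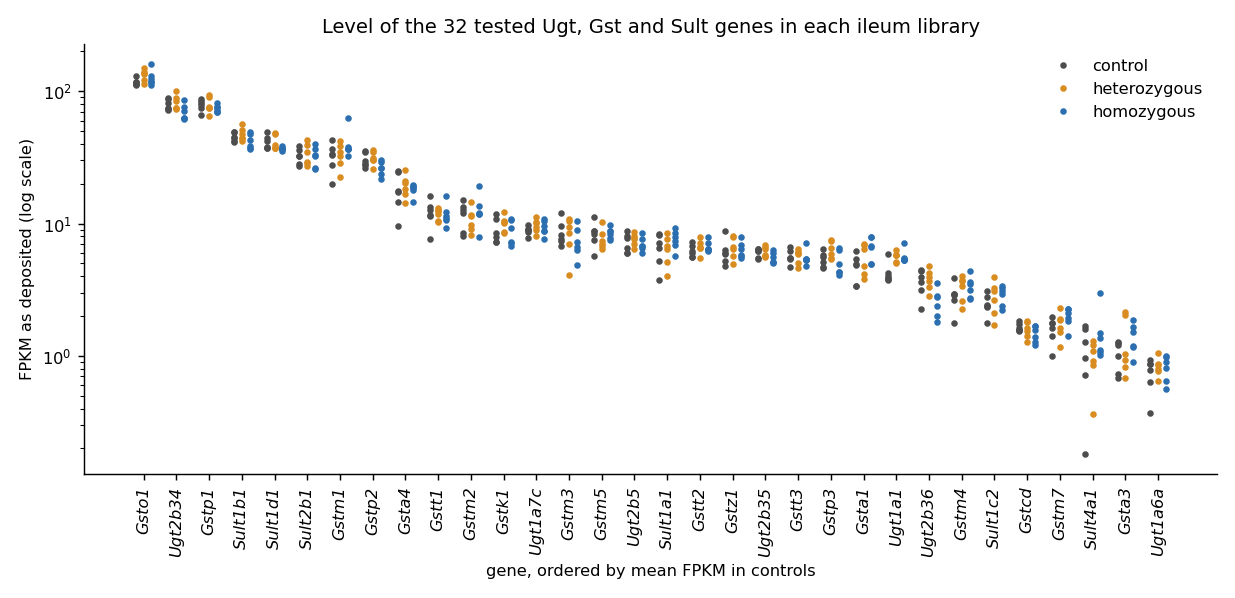
Deposited FPKM (log scale) of the 32 tested genes, each point 1 of 18 ileum libraries, in the order of the mean in controls and coloured by genotype. The levels run from 118 FPKM for *Gsto1* to 0.740 for *Ugt1a6a* in controls, and the 3 genotypes overlap at every gene.

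None of the 32 tested genes passed an adjusted p of 0.05 by edgeR's quasi-likelihood test in any genotype comparison. At an unadjusted p under 0.05, 3 of the 32 differed between homozygous mice and controls, 2 between heterozygous mice and controls and 4 between homozygous and heterozygous mice. By DESeq2 none was called either, although it gave no adjusted p for 2 of the 32 in heterozygous mice against controls. At an unadjusted p under 0.05 it gave 4, 2 and 5, beside 1112, 725 and 1132 of all 12645 genes. Limma-voom also called none, with 3, 1 and 4 at that level, beside 977, 625 and 1004 of all genes. With edgeR, 0.411%, 0.293% and 0.00791% of all 12645 protein-coding genes tested passed the adjusted threshold in the 3 comparisons. The unadjusted one was passed by 8.06%, 5.29% and 7.61%. Over the 32 genes the median log2 fold change was 0.02 in homozygous mice and 0.09 in heterozygous mice relative to controls, and -0.08 in homozygous relative to heterozygous mice, where all tested genes had medians of -0.00483, -0.00578 and -0.000136. In heterozygous mice 26 of the 32 estimates lay above 0 (81.2%, against 47.5% of all genes), and in homozygous mice 17 of 32 (53.1%, against 48.1%). Between homozygous and heterozygous mice 9 of 32 lay above 0 (28.1%, against 49.9% of all genes). Both comparisons with controls share the same 6 control libraries. The precision was that of whole tissue: the 95% confidence interval lay within a log2 change of 1 in either direction for 30 of 32 genes in homozygous and for 32 of 32 in heterozygous mice, the exceptions in homozygous mice being *Gsta3* and *Sult4a1*. Within a log2 change of 0.5 it lay for only 19 and 23 of the 32. Of all 12645 genes, 11687 and 11996 met the wider bound, and 9546 and 9925 the narrower one. No gene had 6 libraries of one genotype wholly above or below the 6 of another in any of the 3 comparisons, which 0.854%, 0.467% and 0.269% of all genes did.

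**Figure D3:**
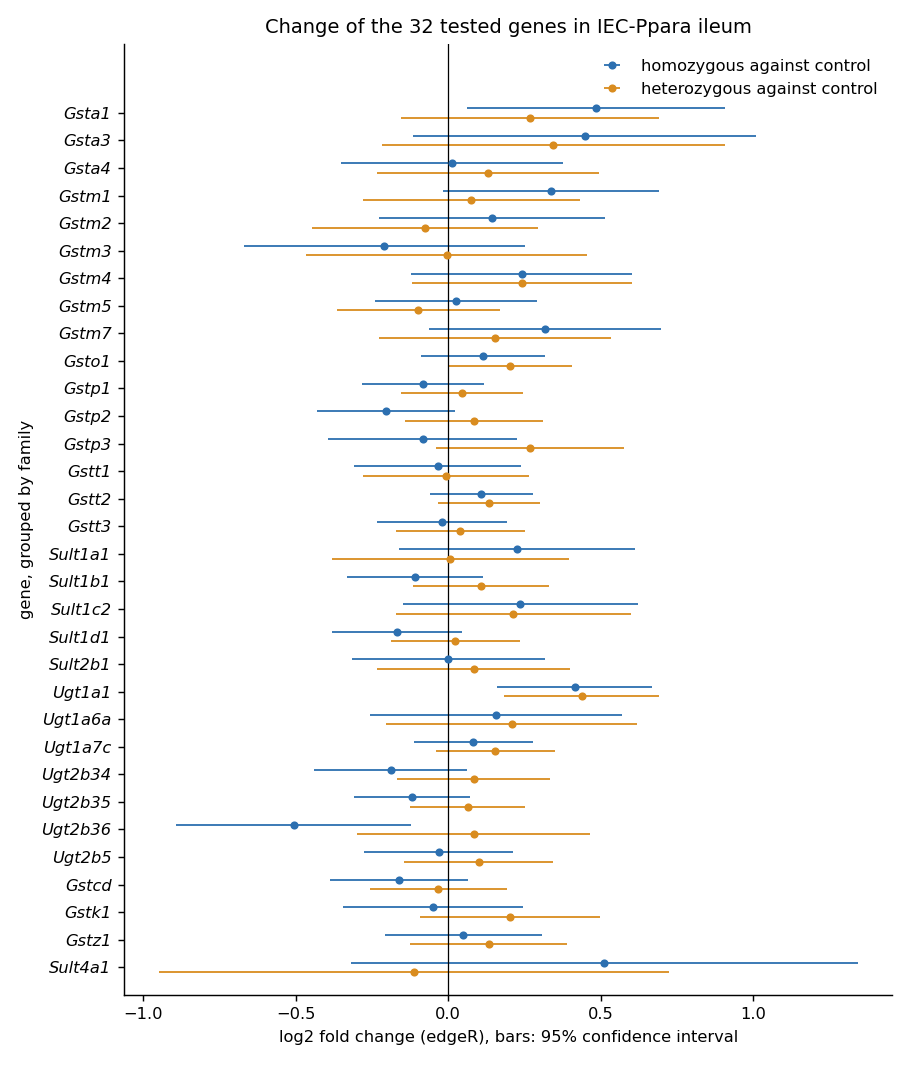
Log2 fold change (points) with 95% confidence interval (bars) for the 32 tested genes in homozygous (blue) and heterozygous (orange) IEC-*Ppara* mice against the same 6 controls. The interval of *Ugt1a1* lies above 0 in both, that of *Gsta1* in homozygous and of *Gsto1* in heterozygous mice, and that of *Ugt2b36* lies below 0 in homozygous mice.

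Among the 32 tested genes, *Ugt1a1* had the lowest p in both comparisons with controls. It measured 8.30 CPM at the lowest, 8.83 at the median and 13.0 at the highest in controls, 11.2, 12.9 and 14.0 in heterozygous and 11.8, 12.0 and 15.9 in homozygous mice. Control replicate 1 was the 13.0, and every other control lay at 9.35 CPM or lower, below all 12 IEC-*Ppara* libraries. Group means were 9.47 ± 1.78, 12.6 ± 1.09 and 12.6 ± 1.60 CPM (SD, n = 6). *Ugt1a1* changed on the log2 scale by 0.41 in homozygous mice (95% confidence interval 0.16 to 0.67, unadjusted p = 0.00301, adjusted p = 0.241) and 0.44 in heterozygous mice (0.18 to 0.69, unadjusted p = 0.00199, adjusted p = 0.276). Without control replicate 1 they were 0.53 and 0.55, and both passed the threshold, with adjusted p of 0.0192 and 0.0154. Over 33 alternatives the adjusted p ran from 0.0192 to 0.846 for homozygous and from 0.0154 to 0.949 for heterozygous mice, and that library was the only one whose removal gave a call. Homozygous and heterozygous mice differed by -0.02 (-0.28 to 0.23). Of the other *Ugt1a* genes, *Ugt1a7c* and *Ugt1a6a* were tested, and the remaining 6 had at most 22 counts in a library. *Ugt1a7c* averaged 37.4 ± 2.80, 40.8 ± 4.57 and 39.5 ± 4.89 CPM in controls, heterozygous and homozygous mice, with 95% intervals of -0.11 to 0.28 and -0.04 to 0.35 for homozygous and heterozygous mice against controls on the log2 scale. *Ugt1a6a*, of the subfamily that conjugates small phenols, averaged 3.19 ± 0.902, 3.58 ± 0.575 and 3.54 ± 0.780 CPM.

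Among the *Ugt2* genes, whose enzymes take steroids, bile acids and drugs, *Ugt2b36* (chr5:87065927-87092555, minus strand) was lowest in homozygous mice. It ran from 4.64 to 9.16 CPM with a median of 7.85 in controls, from 5.89 to 9.78 with a median of 7.80 in heterozygous and from 3.71 to 7.27 with a median of 5.30 in homozygous mice. The ranges overlapped, and 4 libraries of the homozygous group lay between 3.71 and 5.73. Its log2 fold change was -0.51 against controls (-0.89 to -0.12, unadjusted p = 0.0127, adjusted p = 0.448) and -0.59 against heterozygous mice (-0.97 to -0.21, unadjusted p = 0.00469, adjusted p = 0.526). With the distal intestine markers of each library as a covariate these values were -0.21 (unadjusted p = 0.376) and -0.36 (unadjusted p = 0.114), and the part of the markers in the result was not tested further. Most homozygous libraries lay below all others in these markers, so the covariate overlaps with genotype, here and wherever it is used below. The 2 cannot be told apart, and such estimates are not corrected for position in the gut. *Ugt2b34*, the main *Ugt* transcript, averaged 344 ± 32.9 CPM in controls, 357 ± 45.4 in heterozygous and 302 ± 39.7 in homozygous mice, with -0.19 against controls on the log2 scale (-0.44 to 0.06). Its log2 fold change between homozygous and heterozygous mice was -0.27 (-0.52 to -0.02, unadjusted p = 0.0348, adjusted p = 0.642), and -0.15 (unadjusted p = 0.188) with the smooth muscle markers as a covariate. *Ugt2b35* and *Ugt2b5* averaged 18.6 ± 1.75 and 13.0 ± 1.66 CPM in homozygous mice against 20.3 ± 1.55 and 13.4 ± 2.19 CPM in controls. *Ugt2a3*, which did not pass the filter, averaged 1.54, 1.41 and 0.816 CPM, and in a fit without the filter homozygous mice differed from controls by -0.92 on the log2 scale (unadjusted p = 0.00448, adjusted p = 0.372). It is outside the rule for named genes and was chosen after its values were seen.

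**Figure D4:**
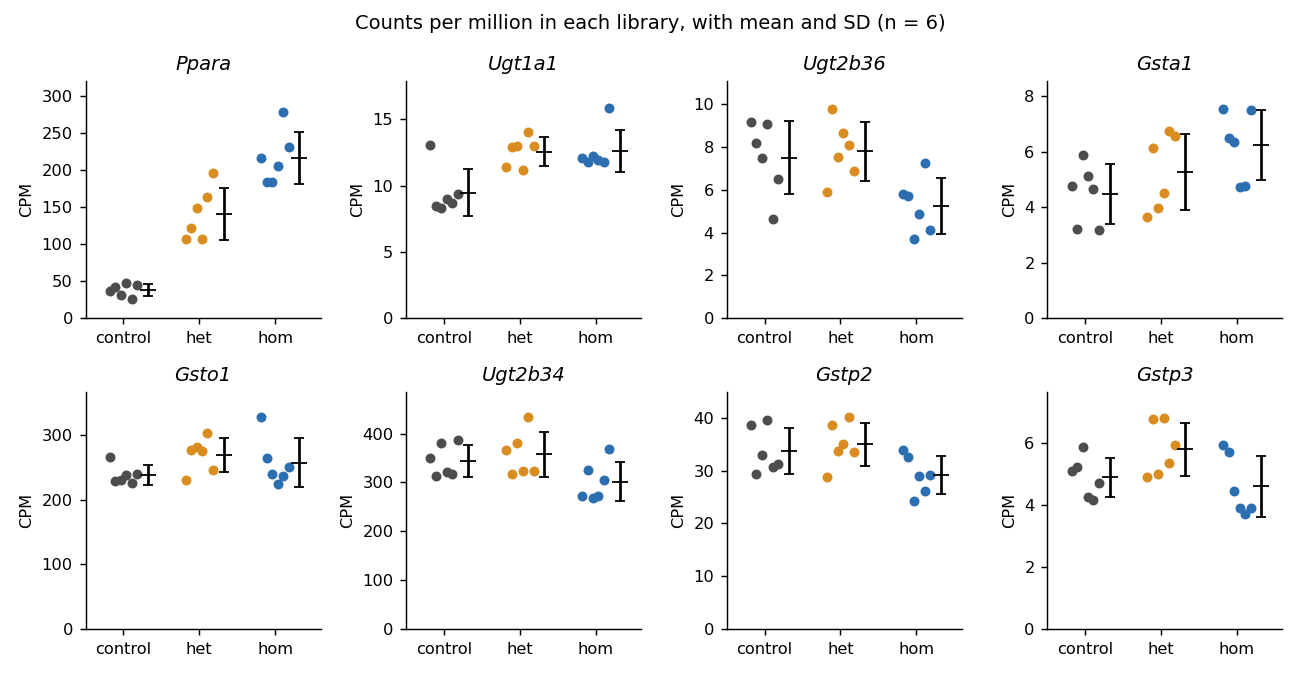
CPM in each of 18 libraries (points) with the mean and SD of each genotype (black, n = 6) for *Ppara* and for the 7 conjugation genes with an unadjusted p under 0.05 in a genotype comparison. *Ppara* separates the controls from both IEC-*Ppara* groups, while the ranges of the other genes overlap, that of *Ugt1a1* through 1 control at 13.0 CPM.

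Among the *Gst* genes, *Gsta1* was highest in homozygous mice, from 4.73 to 7.56 CPM with a median of 6.42, against 3.20 to 5.90 with a median of 4.71 in controls and 3.65 to 6.75 with a median of 5.33 in heterozygous mice. Of the homozygous libraries, 4 lay above every control. Its log2 fold change against controls was 0.48 (0.06 to 0.91, unadjusted p = 0.0271, adjusted p = 0.570), and its counts rest on the reads that tell it from *Gm3776*. With the distal intestine markers as a covariate the *Gsta1* estimate was 0.73 (adjusted p = 0.566). *Gsto1* ran from 226 to 266 CPM in controls, from 230 to 302 in heterozygous and from 225 to 328 in homozygous mice, and 4 heterozygous libraries lay above the highest control. The log2 fold change in heterozygous mice was 0.20 (0.00124 to 0.41, unadjusted p = 0.0488, adjusted p = 0.938), and 0.12 (-0.09 to 0.32) in homozygous mice. *Gstp2* averaged 33.7 ± 4.33, 35.0 ± 4.07 and 29.1 ± 3.67 CPM in controls, heterozygous and homozygous mice, and *Gstp3* averaged 4.88 ± 0.642, 5.78 ± 0.848 and 4.59 ± 0.981 CPM. Between homozygous and heterozygous mice the log2 fold changes were -0.29 for *Gstp2* (-0.51 to -0.06, adjusted p = 0.642) and -0.35 for *Gstp3* (-0.66 to -0.04, adjusted p = 0.642). With the distal intestine markers as a covariate they were -0.09 (unadjusted p = 0.406) for *Gstp2* and -0.15 (unadjusted p = 0.364) for *Gstp3*. *Gstp1*, the more abundant of the near-identical pair, averaged 122 ± 11.4, 123 ± 17.0 and 115 ± 7.15 CPM, with an interval of -0.33 to 0.07 for the same comparison. *Gsta4* averaged 22.9 ± 7.43, 24.5 ± 4.77 and 23.0 ± 2.35 CPM, *Gstt1* 18.5 ± 4.31, 18.0 ± 1.84 and 18.0 ± 3.61, *Gstt2* 25.9 ± 2.71, 28.0 ± 3.20 and 27.9 ± 2.78, and *Gstk1* ranged from 10.7 to 17.4, from 12.5 to 17.9 and from 9.95 to 15.8 CPM. *Gstz1*, which isomerizes maleylacetoacetate in tyrosine breakdown, averaged 31.4 ± 7.03, 33.7 ± 6.13 and 32.4 ± 4.65 CPM.

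*Gsto2*, a dehydroascorbate reductase that begins 743 bases downstream of *Gsto1* on the same strand, was too low for the filter. It had 1 to 16 counts in controls, 19 to 36 in heterozygous and 18 to 50 in homozygous libraries, or 0.0244 to 0.415, 0.422 to 0.750 and 0.365 to 1.12 CPM. All heterozygous libraries lay above all controls in CPM, at the nearest by 0.422 against 0.415, and the homozygous range overlapped that of controls. Of the 12645 genes past the filter, 0.467% had ranges apart between heterozygous mice and controls. That share was not counted for genes below the filter. In the fit without the filter, over 19314 genes, it differed from controls by 1.79 on the log2 scale in homozygous mice (unadjusted p = 0.000319, adjusted p = 0.0896) and 1.40 in heterozygous mice (unadjusted p = 0.00291, adjusted p = 0.436). None of the 20 genes that had counts but missed the filter passed an adjusted p of 0.05 by edgeR in that fit, where 0.274%, 0.207% and 0% of its 19314 genes did for homozygous against control, heterozygous against control and between the IEC-*Ppara* groups. At an unadjusted p under 0.05 there were 2, 1 and 2 of 20 in these comparisons, close to the 8.06%, 4.91% and 7.15% of all genes in the same fit.

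Among the abundant *Sult* genes, *Sult1b1* ran from 115 to 138 CPM in controls, from 117 to 157 in heterozygous and from 102 to 136 in homozygous mice, and *Sult1d1* from 90.9 to 122, from 91.2 to 119 and from 86.9 to 94.8 CPM. The 6 homozygous libraries of *Sult1d1* lay closest together, with an SD of 2.57 CPM against 12.3 in controls and 13.4 in heterozygous mice, a difference in spread that was not tested. Between homozygous and heterozygous mice the log2 fold changes were -0.22 for *Sult1b1* (-0.44 to 0.00635, adjusted p = 0.642) and -0.19 for *Sult1d1* (-0.40 to 0.02, adjusted p = 0.642). *Sult1b1* moved to -0.10 with the distal intestine markers as a covariate, and *Sult1d1* to -0.08 with the smooth muscle markers. *Sult2b1* averaged 128 ± 17.3, 133 ± 25.2 and 128 ± 22.1 CPM, and the interval for homozygous mice against controls was -0.32 to 0.32. *Sult2a8* had at most 0.0457 CPM and *Sult6b1* at most 1.19 CPM in a library.

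The levels were also set against the smooth muscle markers of the sample. Other markers moved with these: homozygous replicate 3, highest in smooth muscle markers, was also highest in the summed markers of fibroblasts (3821 CPM) and macrophages (1413 CPM), and control replicate 6, lowest in smooth muscle markers, was lowest in macrophage (469 CPM) and highest in enterocyte markers (25595 CPM). The separate part of each cell type was not tested. With genotype in the model, the slope of each gene on the log2 sum of the 8 smooth muscle markers of the same library was tested over all 12645 genes, a test added after the data were seen. Of the 32 genes, 5 rose with the markers at an adjusted p under 0.05 by edgeR and none fell, where 10.2% of all tested genes rose and 1.49% fell, so that the share of the 32 was near that of all genes. At an unadjusted p under 0.05 it was 13 of 32, against 26.4% of all genes. The counts and the markers come from the same libraries and share their depth. *Sult4a1*, a sulfotransferase known from the brain and neurons, had the steepest slope of the 32, a log2 change of 0.81 per doubling of the markers (0.66 to 0.96, adjusted p = 3.24e-07). It ran from 0.454 CPM in control replicate 6, which had the lowest marker sum, to 7.53 CPM in homozygous replicate 3, which had the highest. *Gstm1* rose by 0.27 per doubling (0.18 to 0.37, adjusted p = 0.00031) and ran from 29.5 to 92.6 CPM between the same libraries. Both were called without any single library and without the 2 libraries of lowest marker sum, where their slopes were 0.94 and 0.41. *Sult1a1*, which sulfonates phenols, rose by 0.26 (adjusted p = 0.0123), *Gstm2* by 0.22 (adjusted p = 0.03) and *Gstt1* by 0.19 (adjusted p = 0.00538). These calls were less stable: *Sult1a1* lost its call without control replicate 6 or heterozygous replicate 3, *Gstt1* without control replicate 6, and *Gstm2* without control replicate 4, heterozygous replicate 3 or homozygous replicate 3. Without both control replicate 6 and heterozygous replicate 3, the slopes were 0.13 for *Sult1a1* (adjusted p = 0.642), 0.26 for *Gstt1* (adjusted p = 0.0779) and 0.49 for *Gstm2* (adjusted p = 0.0247), and *Ugt2b34* (-0.32, adjusted p = 0.0408) and *Sult2b1* (-0.42, adjusted p = 0.0246) were called as falling. Over all 18 libraries, *Ugt2b34* and *Sult1d1* had slopes of -0.13 (adjusted p = 0.0878) and -0.10 (adjusted p = 0.0922). Calls were also gained with 1 library left out. *Sult1d1* was called as falling in 2 of the 18 such fits, *Gstm5* as rising in 2 and *Gsta3* as rising in 1.

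The level of *Gstm1* was 47.5 ± 11.6 CPM in controls, 48.8 ± 10.1 in heterozygous and 59.7 ± 16.4 in homozygous mice, a log2 fold change of 0.34 for homozygous mice against controls (-0.02 to 0.69, unadjusted p = 0.0611). With the smooth muscle markers as a covariate it was 0.11 (unadjusted p = 0.325), and the part of the markers in it was not tested. No gene of the 32 passed an adjusted p of 0.05 by edgeR for a slope on the distal intestine markers, which 0.00791% of all genes did. At an unadjusted p under 0.05, 7 of 32 rose with them, against 9.16% of all genes in either direction: *Gstm7*, *Gsto1*, *Gstp2*, *Gstp3*, *Gstt2*, *Gstt3* and *Gstk1*, with slopes between 0.41 and 0.82. For the B cell markers it was none called, where 2.64% of all genes were, and 2 of 32 against 8.9% of all genes at an unadjusted p under 0.05, *Sult1d1* and *Ugt1a7c*.

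**Figure D5:**
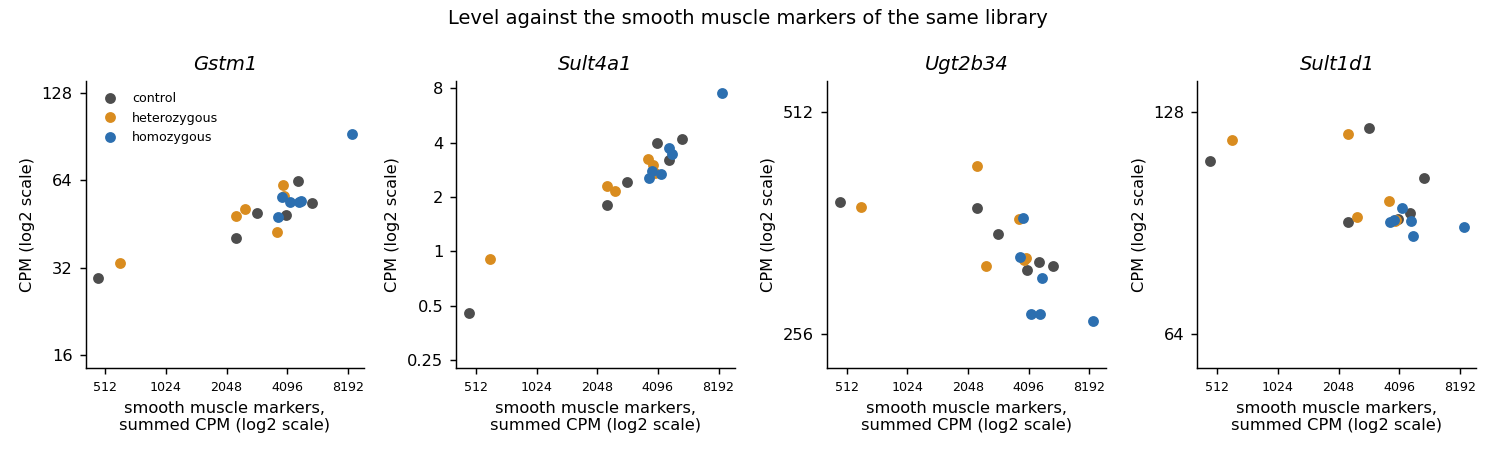
CPM (log2 scale) of *Gstm1*, *Sult4a1*, *Ugt2b34* and *Sult1d1* in 18 libraries against the summed CPM of 8 smooth muscle markers in the same library (log2 scale), coloured by genotype. *Sult4a1* climbs from 0.454 to 7.53 CPM and *Gstm1* from 29.5 to 92.6 CPM between the libraries of lowest and highest marker sum.

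Sex was tested with genotype in the model, over 7 females and 11 males, since several of these enzymes differ between the sexes in liver. None of the 32 genes was called by edgeR, DESeq2 or limma-voom, where edgeR called 0.0554% of all genes. At an unadjusted p under 0.05 there was 1 of 32 by each tool, against 3.39% of all genes by edgeR. This was *Gsta3*, at 4.18 ± 1.35 CPM in females (SD, n = 7) and 6.06 ± 1.98 in males (SD, n = 11), with a log2 difference of females against males of -0.48 (-0.91 to -0.05, unadjusted p = 0.0319, adjusted p = 0.998). *Sult1e1*, the estrogen sulfotransferase, and *Sult3a1* were not among the tested genes.

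The supply of donors and the export of conjugates were read from 8 lists of companion genes, 63 genes of which 54 were tested. *Ppara*, listed among the regulators, was the only one called in a genotype comparison. The counts at an unadjusted p under 0.05 that follow stand beside 8.06% of all tested genes for homozygous and 5.29% for heterozygous mice against controls, and 7.61% between the IEC-*Ppara* groups. The list of UDP-glucuronic acid supply (6 tested) had 1 gene at an unadjusted p under 0.05 in homozygous mice against controls, none in heterozygous mice and 2 between the IEC-*Ppara* groups, 1 higher and 1 lower in homozygous mice. *Ugdh*, the lower one, which makes UDP-glucuronic acid, averaged 159 ± 5.50, 165 ± 20.6 and 147 ± 10.5 CPM in controls, heterozygous and homozygous mice, with -0.19 on the log2 scale in homozygous against heterozygous mice (-0.37 to -0.01, unadjusted p = 0.0362, adjusted p = 0.642). The PAPS list (8 tested) had none in any of the 3 comparisons, and *Papss2*, a PAPS synthase, averaged 135 ± 19.3, 134 ± 18.5 and 146 ± 15.9 CPM. Of the glutathione supply list (10 tested), 1 gene was lower in heterozygous mice at that level, and *Gclc*, the rate-limiting ligase of glutathione synthesis, averaged 78.4 ± 5.01, 83.1 ± 11.4 and 76.2 ± 6.82 CPM. Of 5 microsomal transferases, 1 was higher at that level in homozygous and 2 in heterozygous mice. *Mgst1* averaged 105 ± 9.12, 124 ± 15.6 and 120 ± 11.1 CPM, a log2 fold change of 0.28 in heterozygous mice (0.11 to 0.45, unadjusted p = 0.00268, adjusted p = 0.313) and 0.20 in homozygous mice (0.03 to 0.37, adjusted p = 0.542). Of 9 export pumps, 2 were lower and none higher at that level in homozygous mice against controls, 1 was higher in heterozygous mice, and between homozygous and heterozygous mice 2 were lower and 1 higher. The median log2 fold change of the 9 was 0.05 in homozygous mice against controls. *Abcc2*, an export pump of glucuronide and glutathione conjugates, averaged 280 ± 68.8, 290 ± 70.3 and 178 ± 39.6 CPM, and its log2 fold change was -0.65 against controls (-1.08 to -0.21, unadjusted p = 0.00586, adjusted p = 0.34) and -0.73 against heterozygous mice (-1.17 to -0.30, unadjusted p = 0.00236, adjusted p = 0.475). Over 33 alternatives these values of *Abcc2* ran from -0.77 to -0.48 and from -0.86 to -0.56. The highest unadjusted p, 0.0824 and 0.0311, came from edgeR with the distal intestine markers as a covariate. The part of the markers in it was not tested. Of 8 regulators, *Nr1i2*, the xenobiotic receptor PXR, averaged 108 ± 6.59, 123 ± 6.57 and 109 ± 12.9 CPM, with 0.22 in heterozygous mice against controls (0.05 to 0.39, adjusted p = 0.714), 0.01 in homozygous mice against controls and -0.20 in homozygous against heterozygous mice (-0.37 to -0.04, adjusted p = 0.642). Of 8 genes of other conjugation and hydrolysis, 1 was higher at that level in both groups against controls and 1 was lower between homozygous and heterozygous mice. The higher one, *Ephx2*, the soluble epoxide hydrolase, averaged 49.8 ± 6.01, 65.7 ± 9.93 and 60.6 ± 9.93 CPM, with 0.44 in heterozygous mice against controls (0.20 to 0.67, unadjusted p = 0.00129, adjusted p = 0.211) and 0.29 in homozygous mice (0.05 to 0.53, adjusted p = 0.548). The glycosyltransferase *Ugt8a* and the acetyltransferase *Nat1* reached at most 0.214 and 0.199 CPM and were not tested.

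The promoters were searched for the letters of 2 kinds of element, on both strands, in windows from 250 bases before to 50 after each start in RefSeq on GRCm38. The PPAR element DR1 was spelled AGGTCANAGGTCA, its single hexamer AGGTCA and the core of the antioxidant element TGACNNNGC, where the hexamer is part of the DR1. Of the 63 genes, 56 had a window, with 68 windows in all. No window held a DR1, which 0.0396% of all 32851 windows do. The hexamer stood in 12 of the 68 windows (17.6%), against 16.3% of all windows, and the antioxidant core in 3 of 68 (4.41%), those of *Gsta3*, *Gstm5* and *Gstm7*, against 12.4%. The 250 bases before the start are printed for *Ugt1a1* (chr1:88211709-88211958, plus strand) and *Ugt2b36* (chr5:87092556-87092805, minus strand), which among the 32 tested genes had the lowest p against controls and between the IEC-*Ppara* groups, 5′ to 3′ in the direction of transcription. A hexamer is in capitals.
Ugt1a1: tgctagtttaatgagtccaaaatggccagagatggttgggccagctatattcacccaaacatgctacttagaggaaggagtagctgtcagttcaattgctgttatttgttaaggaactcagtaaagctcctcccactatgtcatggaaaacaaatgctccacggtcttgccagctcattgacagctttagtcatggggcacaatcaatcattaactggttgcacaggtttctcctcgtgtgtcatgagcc
Ugt2b36: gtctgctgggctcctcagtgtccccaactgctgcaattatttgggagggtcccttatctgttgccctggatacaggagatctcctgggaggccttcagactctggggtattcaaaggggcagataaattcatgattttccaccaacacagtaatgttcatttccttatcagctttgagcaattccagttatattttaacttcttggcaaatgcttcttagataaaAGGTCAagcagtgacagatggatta

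The window of *Ugt2b36* holds 1 hexamer and that of *Ugt1a1* holds none of the letters searched. A match is a description of the window and no evidence of binding, and the absence of one says only that these letters are not in it.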

How the data were processed

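Poly-A RNA of whole-thickness ileum was sequenced by the authors as paired reads, which they aligned with STAR to GRCm38 and counted per gene with featureCounts, keeping uniquely aligned and unambiguous reads. The counts deposited by the authors carry no normalization. The CPM deposited by the authors are these counts scaled to the total of the library, and the FPKM deposited by the authors are divided by exonic length too. A table of moderated log2 CPM, also deposited, was not used. Samples were grouped by the genotype in their labels, and all 18 libraries were used.

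The test took the 12645 protein-coding genes that exceeded 3 CPM in 4 or more libraries, and was run with edgeR 4.0.16 (glmQLFit and glmQLFTest, TMM, 1 coefficient per genotype, no covariate) in R 4.3.3, with Benjamini-Hochberg adjustment over those genes and a threshold of 0.05. Confidence intervals are the estimate ± the t quantile times its standard error. Alternatives were DESeq2 1.42.0, limma-voom (limma 3.58.1), other size factors, other filters, all biotypes, the 12 libraries compared, sex as a covariate, a replicate block and each library left out. Covariates of marker sums were added after the data were seen, and the distal intestine sum overlaps with the homozygous group. Tested on simulated data in which 200 genes were changed, it found 84 of 100 genes changed 2-fold and 63 of 100 changed 1.5-fold for homozygous against control, with 8 false calls. Tables and plots were made with Python 3.11.15, pandas 2.3.3 and matplotlib 3.10.9.

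The genes named were members with an adjusted p under 0.05, or an unadjusted p under 0.05 in a genotype comparison, the 2 members of highest control FPKM in each subfamily, companion genes called or first in their list, and *Ppara*, *Fabp1* and *Pdk4*. Any other was named after its values were seen. The members and lists were chosen with earlier results of these data known. 100-base stretches were matched on GENCODE M21 transcripts, whose annotation may differ from that of the counts.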

Additional observations from a re-analysis of the deposited data

Results flagged for a closer look

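In 72 groups of 6 libraries, the levels of 24 named genes in 3 genotypes, 8 values, from 5 libraries, stood apart from the others of their group by Dixon's criterion, where chance gives about 1 in 20, or 3.6.

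*Ugt1a1* was at 13.0 CPM in control replicate 1, with the next control at 9.35, and at 15.9 CPM in homozygous replicate 6, with the next at 12.2. *Gsto1* was at 266 CPM in control replicate 1, with the next at 239.7. *Gstm1* was at 92.6 CPM in homozygous replicate 3, with the next at 56.1, and *Sult4a1* was at 7.53 CPM in the same library, with the next at 3.72; its smooth muscle marker sum of 8556 CPM was the highest of all 18 libraries. *Gsta4* was lowest in homozygous replicate 6 at 18.4 CPM, with the next at 22.8. *Sult2a8* was at 0.0422 CPM in control replicate 5 and at 0.0457 CPM in heterozygous replicate 2, and at 0 in all other libraries of those groups, which at these depths is a handful of reads.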

How the results depend on the processing

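The count of conjugation genes called was 0 in each genotype comparison and for sex under every alternative but one. With 1 library left out it ranged from 0 to 1 for homozygous against control and for heterozygous against control, the 1 being *Ugt1a1* without control replicate 1. For the slope on smooth muscle markers it was 5, and 3 to 6 with 1 library left out, the lowest without control replicate 6 or heterozygous replicate 3. Of 526 values of 16 member fold changes under the alternatives, 523 kept their direction and their side of the threshold, 2 were the *Ugt1a1* calls, and 1 turned: *Gstp2* in homozygous mice against controls, from -0.20 to 0.0336 with the distal intestine markers as a covariate. The cause was not tested. These 16 were picked for a low unadjusted p by edgeR in the main fit, and all were uncalled there. The alternatives refit mostly the same libraries, so the count is no independent support. With a replicate block none was called, and *Ugt1a1* kept 0.42 and 0.45 (adjusted p = 0.342 and 0.44). Same-numbered libraries correlated in their deviations from -0.61 to 0.64, with 9 of 18 over 0.1 and 3 of 18 best with their own number. This gave no clear sign of pairing by number. It cannot exclude one, since the libraries also differed in their tissue markers. The block changed the genes called in heterozygous mice against controls from 37 to 22, and DESeq2 called 136, 82 and 9 genes in the 3 comparisons where edgeR called 52, 37 and 1.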
